A study of Mus musculus with 18 samples.

Results

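Enterochromaffin cells are the serotonin-producing enteroendocrine cells of the gut epithelium. They were studied here in the single-cell RNA-seq libraries of GFP+ cells sorted from ileal crypts, where 337 of 25204 kept barcodes met the rule that defines them. The rule took a barcode with 1000 to 18000 UMIs (unique molecular identifiers, each counting 1 captured RNA molecule), 200 to 4000 genes and less than 5% mitochondrial UMIs. Within these limits it required at least 1 UMI of Tph1 and at least 0.5% of all UMIs from Chga, Tac1 and Tph1 together. The values of these 3 genes therefore chose the members and are given below only as a description. The whole series held 42869 kept barcodes in 8 libraries.

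The study asked how the H3K9 methyltransferase Setdb1 acts in Lgr5+ intestinal stem cells and their progeny. Lgr5+WT denotes Lgr5-GFP-CreERT2 mice and Lgr5+Setdb1KO denotes Lgr5-GFP-CreERT2/Setdb1lox/lox mice, in which exon 3 of Setdb1 is flanked by lox sites. All were 60 to 65 days old on a C57Bl6 background. Both genotypes, controls included, carried the GFP-CreERT2 allele at Lgr5 and received 1 intraperitoneal dose of tamoxifen, 70 mg/kg, 5 days before analysis. There were 2 libraries per genotype, called biological replicates by the study. Cre is active only in cells that express Lgr5, so an enterochromaffin cell can carry the deletion only if it descends from such a cell, and the libraries do not show which members do. According to the study's text, mature enteroendocrine cells were in this sort because of the gating and the incomplete enrichment, whereas an early enteroendocrine cluster expressed GFP. The members held 0 GFP UMIs, which says little because all other kept barcodes outside the hormone classes held 15, 21, 9 and 15 in the 4 libraries. An Lgr5 UMI was found in 0 and 2 members of the Lgr5+WT libraries and in 0 and 3 members of the Lgr5+Setdb1KO libraries. A separate sort of lineage-traced cells came from mice that carried the nTnG reporter in addition to either genotype. These mice were also 60 to 65 days old and analysed 5 days after tamoxifen, 70 mg/kg.

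In enterochromaffin cells tryptophan hydroxylase (Tph1) carries out the rate-limiting step of serotonin synthesis, aromatic L-amino acid decarboxylase (Ddc) completes it, and vesicular monoamine transporters load the product into dense-core granules that are packed with chromogranins. The cells arise from crypt secretory precursors that switch on Neurog3 for a short time, and many of them also make substance P from Tac1. They sense irritants, microbial products and mechanical force, and release serotonin onto nerve endings and neighbouring cells.

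The members numbered 22, 57, 71 and 187 in Lgr5+WT 1, Lgr5+WT 2, Lgr5+Setdb1KO 1 and Lgr5+Setdb1KO 2, and values are given in this order of libraries throughout. Their median depth was 3248, 2960, 4910 and 2230 UMIs, below the 7604, 6083, 9329 and 4686.5 UMIs of all kept barcodes. Summed over members, the libraries gave 82722, 223252, 386971 and 557407 enterochromaffin UMIs, so the first Lgr5+WT library is the least precise. The rule genes took a median of 1.65%, 1.93%, 2.05% and 2.30% of a member's UMIs. Just inside the threshold the lowest members held 0.534%, 0.5002%, 0.501% and 0.502%, and just outside it the highest Tph1-positive barcodes held 0.441%, 0.452%, 0.473% and 0.493%. Markers of another epithelial type reached 2% of UMIs in 1, 1, 2 and 19 members, mostly goblet markers (11) and Paneth markers (8) in Lgr5+Setdb1KO 2. No enterochromaffin barcode was a member in another library of the sort, and pairs of these libraries shared 3 to 24 kept barcodes. Levels are given as CPM, a gene's UMIs scaled to a common total of UMIs per library and class. In the empty droplets, whose RNA is free in the suspension, Tph1 stood at 7.67 to 25.4, Chga at 40.3 to 111 and Tac1 at 22.5 to 63.4 CPM.

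The promoters of the rule genes and of Chgb are shown because these 4 genes led the ranking by ratio over other kept barcodes, with 10 CPM added to both levels, among genes of at least 100 CPM (counts scaled to a common total) in the members. Each line is the 250 bases upstream of an annotated start, 5′ to 3′ on the gene's strand, from RefSeq on GRCm38.p6. Capitals mark TGACG on either strand, the core of the cyclic AMP response element, searched as 5 letters with no mismatch and with overlapping matches allowed.
Tph1, first start, chr7:46672538-46672787 (−): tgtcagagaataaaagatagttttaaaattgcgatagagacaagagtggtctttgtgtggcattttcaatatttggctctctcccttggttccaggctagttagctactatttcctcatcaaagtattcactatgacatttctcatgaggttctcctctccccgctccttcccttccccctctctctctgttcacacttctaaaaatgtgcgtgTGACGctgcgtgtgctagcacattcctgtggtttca
Tph1, second start, chr7:46667378-46667627 (−): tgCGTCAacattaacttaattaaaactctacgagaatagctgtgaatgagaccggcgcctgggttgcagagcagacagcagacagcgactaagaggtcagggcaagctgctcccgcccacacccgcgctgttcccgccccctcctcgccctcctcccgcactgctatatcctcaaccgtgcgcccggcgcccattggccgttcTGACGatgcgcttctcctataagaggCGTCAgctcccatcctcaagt
Chga, chr12:102554691-102554940 (+): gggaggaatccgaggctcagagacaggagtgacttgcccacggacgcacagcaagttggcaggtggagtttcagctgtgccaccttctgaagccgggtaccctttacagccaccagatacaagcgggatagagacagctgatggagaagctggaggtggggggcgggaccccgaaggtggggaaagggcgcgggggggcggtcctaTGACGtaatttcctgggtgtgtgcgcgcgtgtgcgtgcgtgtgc
Tac1, chr6:7554811-7555060 (+): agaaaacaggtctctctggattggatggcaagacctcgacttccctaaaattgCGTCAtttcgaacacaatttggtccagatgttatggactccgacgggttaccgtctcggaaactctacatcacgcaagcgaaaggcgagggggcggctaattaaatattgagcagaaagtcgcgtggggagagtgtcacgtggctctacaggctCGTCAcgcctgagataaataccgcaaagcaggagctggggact
Chgb, chr2:132781392-132781641 (+): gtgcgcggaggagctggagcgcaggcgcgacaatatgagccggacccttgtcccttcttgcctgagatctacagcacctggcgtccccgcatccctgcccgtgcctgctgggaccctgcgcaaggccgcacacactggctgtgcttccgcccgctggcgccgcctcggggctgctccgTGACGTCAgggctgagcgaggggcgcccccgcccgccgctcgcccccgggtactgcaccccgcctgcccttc
The motif occurred 1, 3, 1, 2 and 2 times in these windows, and the 2 matches in Chgb overlap as a palindrome. Of 32851 annotated upstream windows of the same length, 17.8% held the motif. The match is a description of the letters and says nothing of what binds there in these cells.

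Genes that the rule did not use also marked these barcodes. Chgb, the second chromogranin, was the most abundant of the 20 genes that led this ranking, at 51421 ± 3502 CPM (SD, n = 4 libraries), against 89.4 in other kept barcodes and 6265 in peptide-hormone barcodes. Peptide-hormone barcodes are the 447 kept barcodes without a Tph1 UMI in which 8 gut hormones (Ghrl, Gcg, Cck, Gip, Sst, Nts, Pyy and Sct) made up at least 0.5% of UMIs. Reg4, a secreted lectin, stood at 5660 ± 2570 CPM, against 74.98 in other kept barcodes and 35.6 in peptide-hormone barcodes. Afp, alpha-fetoprotein, stood at 1029 ± 816, against 1.30 and 1.75. Of the other genes of that group of 20, Vim (vimentin) stood at 2169, Gstt1 (a glutathione transferase) at 1441 and Rab3c (a small GTPase of secretory vesicles) at 592 CPM. These 3 genes were at 130, 98.2 and 18.1 in peptide-hormone barcodes. Because all genes of a member share the barcode that the rule selected, these ratios carry no test. The 10 CPM added favour abundant genes, and without them Ucn3 (1209), Trpa1 (1138) and C230038L03Rik (1004) had higher ratios than Chgb (575) and Chga (633).

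**Figure D1:**
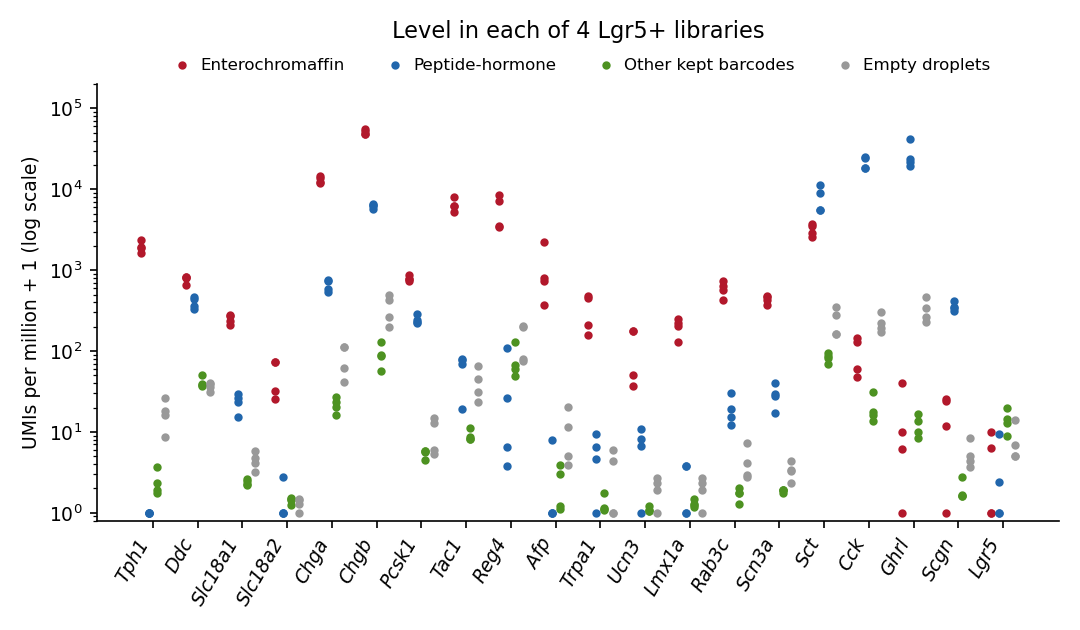
CPM plus 1 (log scale) of 20 genes in enterochromaffin, peptide-hormone and other kept barcodes and in empty droplets, 1 point per Lgr5+ library. Tph1, Tac1, Reg4, Afp, Trpa1 and Lmx1a stood high in enterochromaffin barcodes alone, while Cck, Ghrl and Scgn stood high in peptide-hormone barcodes and Sct in both.

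The enterochromaffin barcodes held the whole serotonin route up to vesicle loading. Tph1 itself, a rule gene, stood at 2333, 1940, 1894 and 1615 CPM. Ddc stood at 810, 649, 822 and 827, and Gch1, which makes the cofactor tetrahydrobiopterin, at 459, 515, 576 and 452. The genotypes overlapped for Gch1, while both Lgr5+Setdb1KO libraries were the lower for Tph1 and, by a small margin, the higher for Ddc, which did not pass the test between genotypes described below. The transporter Slc18a1 (VMAT1) stood at 278, 206, 269 and 233 CPM, 10.8 times its mean level in peptide-hormone barcodes. Slc18a2 (VMAT2) was lower, at 24.2, 31.4, 72.4 and 71.8. The serotonin reuptake transporter Slc6a4 had 1 UMI in all members together, and the monoamine oxidase Maoa, which degrades serotonin, stood at 10.3 to 35.9 CPM. In every library Maoa lay below its level in the empty droplets (47.4 to 62.8 CPM).

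Some granule and release genes stood at other levels in the members than in the peptide-hormone barcodes, and others did not. Chga, a rule gene, stood at 12342, 12018, 13949 and 14442 CPM, and Pcsk1, the prohormone convertase PC1/3, at 737, 770, 871 and 766. Secretogranin II (Scg2) had 4 UMIs in all members and a mean of 683 CPM in peptide-hormone barcodes. Secretagogin (Scgn), a calcium sensor, averaged 14.5 in the members and 353 in peptide-hormone barcodes. Rab3c went the other way, at 629, 430, 739 and 569 in the members. The sodium channel Scn3a stood at 471, 367, 478 and 425 CPM, 15.7 times its mean level in peptide-hormone barcodes, and the calcium channel Cacna1a at 399, 305, 331 and 262. The exocytosis gene Cplx2 averaged 231 in both classes, and the potassium channel Kcnb2, the calcium channel subunit Cacna2d1 and the active zone gene Rimbp2 were at 1.01, 1.09 and 1.21 times their peptide-hormone level.

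Among hormone genes the members expressed Tac1 and secretin (Sct). Tac1, a rule gene, stood at 6226, 6199, 8122 and 5285 CPM. Sct stood at 2877, 2593, 3716 and 3547, and at 5505 to 11214 in peptide-hormone barcodes, which were selected on Sct among other hormones. Cck (145, 58.2, 129 and 46.6), Ghrl (0 to 39.5) and Pyy (0 to 12.1) lay below their level in the empty droplets of the same library, where Cck stood at 172 to 305. Sst stood at 238 in Lgr5+Setdb1KO 1 and at 24.2 or less in the other 3 libraries. Urocortin 3 (Ucn3), a peptide of the corticotropin-releasing factor family, stood at 36.3, 49.3, 178 and 178 CPM, against 0 to 9.78 in peptide-hormone barcodes.

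After thinning every barcode to 1000 UMIs, Chgb was found in 100% of members of every library, and in 72.8% to 82.4% of peptide-hormone barcodes. Sct was found in 77.3%, 61.4%, 64.8% and 63.6% of thinned members (86.4%, 87.7%, 88.7% and 81.8% without thinning). Barcodes with at least 2% enterocyte-marker UMIs served as a measure of background, at median depths of 8599, 6764, 11529 and 5206 UMIs. In these, a Sct UMI was found in 3.08% or less after thinning and a Trpa1 UMI in 0%.

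Levels of some transcription factors also differed between the classes. Lmx1a, which is required for Tph1 expression, stood at 206, 130, 251 and 224 CPM in the members and at 0 to 2.82 in peptide-hormone barcodes. Fev, a marker of serotonergic cells, averaged 337 and 122. Isl1, a factor of peptide-hormone cells, had 3 UMIs in the members, against a mean of 801 CPM in peptide-hormone barcodes. Neurod1, Nkx2-2 and Insm1 lay closer together, with means of 364 and 285 for Neurod1, 202 and 145 for Nkx2-2, and 445 and 347 for Insm1. Rfx6 and St18 stood at 1.34 and 1.04 times their mean peptide-hormone level. Other factors of endocrine cells lay further apart, with Pax6 at 0.290 times that level and Pax4, Neurod2 and Myt1 at 3.18, 2.84 and 2.37 times.

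Of the 22 sensor genes looked up, 3 were abundant enough to test between genotypes. Trpa1, a channel for irritants, stood at 157, 211, 447 and 475 CPM in the members and at 0 to 8.38 in peptide-hormone barcodes. Ffar2, a receptor for short-chain fatty acids, stood at 351, 184, 382 and 246. Trpc4, a cation channel, stood at 48.4, 40.3, 20.7 and 35.9. The adrenergic receptor Adra2a had 10 UMIs and the odorant receptor Olfr558 had 11 over all members. At this depth 3 UMIs correspond to 5.38 to 36.3 CPM, so lower levels could not be seen in a single library.

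Enterochromaffin barcodes were a larger share of the sort in both Lgr5+Setdb1KO libraries. They made up 0.462%, 0.929%, 2.46% and 1.64% of kept barcodes, with exact 95% binomial intervals (Clopper-Pearson) of 0.290 to 0.698%, 0.705 to 1.20%, 1.92 to 3.09% and 1.41 to 1.89%. These intervals cover counting error only. The Lgr5+Setdb1KO shares did not overlap the Lgr5+WT shares, and the means were 2.05% ± 0.580 and 0.696% ± 0.331 (SD, n = 2 libraries each), a difference of 1.35 percentage points. In an exact two-sided permutation test p was 0.33, which is the smallest value that 2 against 2 libraries allow. Peptide-hormone barcodes numbered 56, 85, 93 and 213 of 4764, 6133, 2889 and 11418 kept barcodes. They too were a larger share in both Lgr5+Setdb1KO libraries, so the rise was not particular to enterochromaffin barcodes. As a share of enterochromaffin plus peptide-hormone barcodes the values were 28.2%, 40.1%, 43.3% and 46.8% (exact permutation p = 0.33). How pure each sort was and how many such cells the crypts held cannot be told apart from these libraries.

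**Figure D2:**
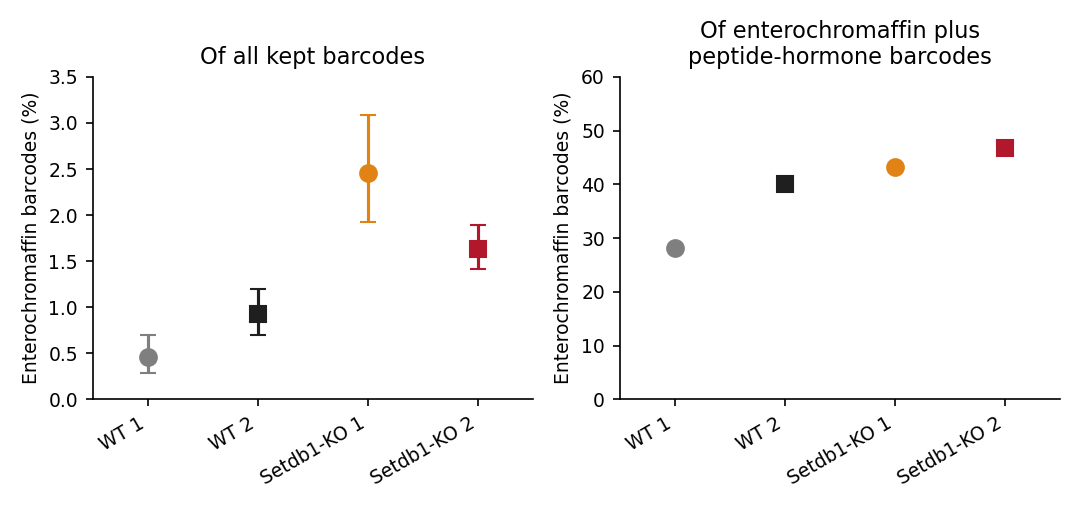
Share of enterochromaffin barcodes (%) in each Lgr5+ library, of all kept barcodes (left, with exact 95% binomial intervals) and of enterochromaffin plus peptide-hormone barcodes (right). Both Lgr5+Setdb1KO libraries, at 2.46% and 1.64%, lie above both Lgr5+WT libraries, at 0.462% and 0.929%.

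Few genes of the members passed the test between genotypes. UMIs were summed per library and tested by the quasi-likelihood method of edgeR, and p-values were adjusted (Benjamini-Hochberg) across the 4732 genes that passed the filter on low counts. Leaving out the rule genes, 3 of 4729 genes (0.0634%) had an adjusted p below 0.05, with 1 (0.0211%) higher and 2 (0.0423%) lower in Lgr5+Setdb1KO. Leaving out 1 library gave 25 calls without Lgr5+WT 1, 14 without Lgr5+WT 2, 38 without Lgr5+Setdb1KO 1 and 36 without Lgr5+Setdb1KO 2, and removing likely doublets gave 36. At an unadjusted p below 0.05 there were 257 genes (5.43%), 140 of them (2.96%) higher and 117 (2.47%) lower. The median log2 fold change over all tested genes was 0.00. Setdb1 itself had 0, 4, 5 and 5 UMIs in the members, too few to test. UMIs counted at the transcript's 3′ end are also no measure of a deleted exon 3, so in these cells the deletion could not be checked.

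Ceacam10, a member of the carcinoembryonic antigen-related cell adhesion family, fell the most of the 3. It stood at 206 and 255 CPM in the Lgr5+WT libraries and at 18.1 and 16.1 in the Lgr5+Setdb1KO libraries. A Ceacam10 UMI was found in 10 of 22, 24 of 57, 5 of 71 and 9 of 187 members. The log2 fold change was −3.79 ± 0.36 (SE, edgeR adjusted p = 2.7e-05). In the empty droplets the gene stood at 72.9, 85.6, 12.6 and 27.3 CPM, and the members held 17, 57, 7 and 9 UMIs of it. The members thus stood above the free RNA in both Lgr5+WT libraries. In Lgr5+Setdb1KO 1 they stood slightly above it, on 7 UMIs only, and in Lgr5+Setdb1KO 2 below it. Other kept barcodes showed the fall too (98.2, 110, 10.3 and 19.1; log2 fold change −2.75, edgeR adjusted p = 0.0044). In peptide-hormone barcodes the gene did not pass the test (252, 403, 177 and 184; log2 fold change −0.81, edgeR adjusted p = 0.95). The difference between the enterochromaffin and the peptide-hormone effect was itself past the threshold, at −2.92 ± 0.37 on the log2 scale (SE, edgeR interaction term, adjusted p = 0.0021). It was the only such gene of 6081 (0.0164%). It was lost with DESeq2 (adjusted p = 0.090), without Lgr5+WT 2 (edgeR adjusted p = 0.44) and without Lgr5+Setdb1KO 1 (edgeR adjusted p = 1). Its neighbour on chromosome 7, Cd177, was looked up after these values were seen. Cd177 ends 16832 bases before Ceacam10 starts, with no annotated gene between them. It stood at 169, 94.1, 36.2 and 26.9 CPM in the members (log2 fold change −1.94, edgeR adjusted p = 0.15, below 0.05 in 8 of 16 alternatives) and at 187, 155, 139 and 155 in peptide-hormone barcodes.

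Olfm4, a secreted glycoprotein that marks crypt base stem cells, was the other gene that fell. It stood at 1148, 1227, 279 and 440 CPM, a log2 fold change of −1.72 ± 0.29 (SE, edgeR adjusted p = 0.030). Both Lgr5+Setdb1KO libraries lay below both Lgr5+WT libraries. After thinning, an Olfm4 UMI was found in 22.7%, 22.8%, 11.3% and 15.0% of members. Other kept barcodes held more of it and also fell (3235, 2916, 1801 and 1500), and the empty droplets moved in the same direction (1874, 1569, 601 and 919). In peptide-hormone barcodes Olfm4 was also lower in both Lgr5+Setdb1KO libraries (897, 1202, 77.8 and 554 CPM). Because free Olfm4 RNA stood above the members in every library, its part in the difference was not tested. The call was lost in 4 of 16 alternatives, namely without Lgr5+Setdb1KO 1 (log2 fold change −1.35, edgeR adjusted p = 0.19), with at least 2000 UMIs (0.18), with up to 10% mitochondrial UMIs (0.12) and with the rule after thinning (0.051).

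C230038L03Rik was the gene that rose. It stood at 60.4, 62.7, 256 and 312 CPM, a log2 fold change of 2.18 ± 0.34 (SE, edgeR adjusted p = 0.013). A UMI was found in 3 of 22, 9 of 57, 26 of 71 and 89 of 187 members. The call was lost with DESeq2 (adjusted p = 0.10). The gene stood lower elsewhere, at 0.05 to 0.45 in other kept barcodes and 0 to 3.18 in empty droplets. In peptide-hormone barcodes it stood at 0, 11.3, 25.3 and 15.4 CPM (0, 4, 14 and 11 UMIs), also higher in both Lgr5+Setdb1KO libraries.

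**Figure D3:**
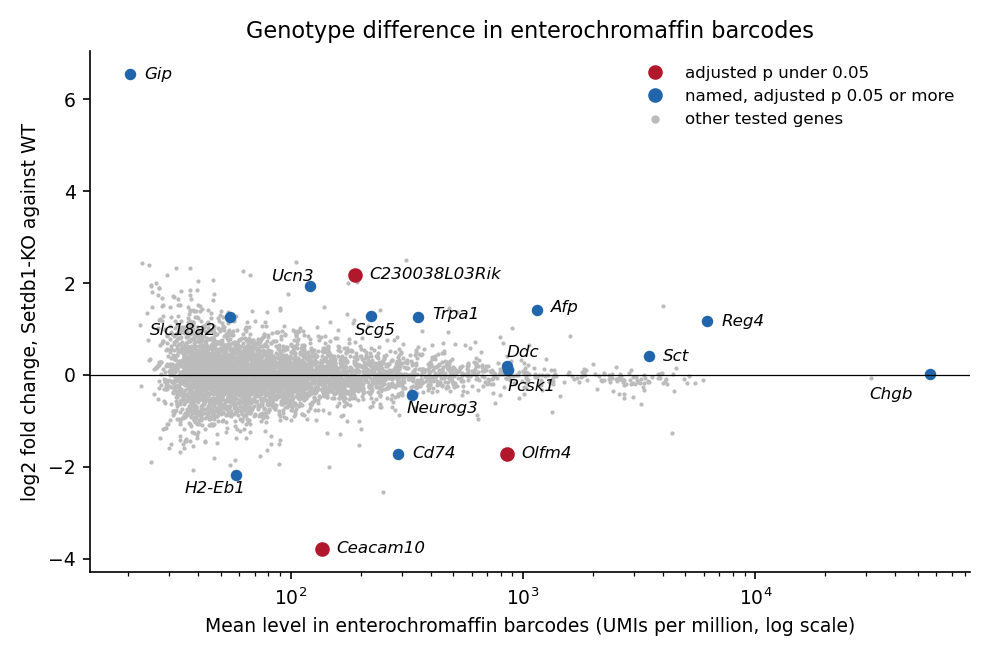
log2 fold change (Lgr5+Setdb1KO against Lgr5+WT) against the mean level in enterochromaffin barcodes (CPM, log scale) for 4729 genes. Ceacam10 and Olfm4 lie below 0 and C230038L03Rik above it with adjusted p under 0.05 (red), and the other named genes (blue), Chgb at 0.02 among them, did not pass. Gip had 0 UMIs in both Lgr5+WT libraries, so its fitted value is no measure of size.

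The genes of serotonin synthesis, the granules and release did not pass the test. Of the serotonin genes 9 of 14 were tested apart from Tph1, none was called, and the median log2 fold change was 0.18. At an unadjusted p below 0.05, which 2.96% of all tested genes reached in this direction, 2 were higher, namely Slc18a2 (log2 fold change 1.27, edgeR adjusted p = 0.81) and Qdpr (0.56, edgeR adjusted p = 0.90), the reductase that recycles tetrahydrobiopterin. Granins and processing enzymes gave 7 tested of 12, none called and a median of 0.10. Chgb overlapped between genotypes (48609, 53128, 55534 and 48412 CPM, log2 fold change 0.02 ± 0.36). Scg5, the chaperone of prohormone convertase 2, stood at 145, 98.5, 289 and 278 (log2 fold change 1.29, edgeR adjusted p = 0.18, below 0.05 in 4 of 16 alternatives). In other kept barcodes it rose (0.368, 0.440, 1.65 and 1.47; log2 fold change 1.96, edgeR adjusted p = 0.021). The empty droplets held Scg5 at 1.44, 1.34, 7.43 and 8.64 CPM, above those barcodes in every library. The part of this free RNA in their rise was not tested. Peptide-hormone barcodes held Scg5 at 198, 231, 559 and 313 CPM, also higher in both Lgr5+Setdb1KO libraries. Vesicle release and excitability genes gave 19 tested of 22, none called and a median of 0.00. The 20 transcription factors tested of 26 gave none called and a median of 0.03, and the 10 tested genes of the H3K9 methylation machinery gave none called and a median of 0.08.

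Several products of the members were higher in both Lgr5+Setdb1KO libraries without passing the adjusted threshold. Ucn3 gave 36.3 and 49.3 against 178 and 178 CPM (log2 fold change 1.94 ± 0.36, edgeR adjusted p = 0.054). Its UMIs numbered 3, 11, 69 and 99, found in 1 of 22, 6 of 57, 22 of 71 and 54 of 187 members. Trpa1 gave 157 and 211 against 447 and 475 (1.26 ± 0.28, adjusted p = 0.15). Reg4 gave 3542 and 3422 against 7197 and 8480 (1.17 ± 0.30, adjusted p = 0.27). Afp gave 375 and 726 against 796 and 2221 (1.42 ± 0.42, adjusted p = 0.42). These calls depended on the processing, since over 16 alternatives Ucn3 had an adjusted p below 0.05 in 11, Trpa1 in 6, Afp in 5 and Reg4 in 3. The Afp log2 fold change was 2.12 without Lgr5+WT 2 (edgeR adjusted p = 0.010), 2.03 without Lgr5+Setdb1KO 1 (0.00088) and 0.41 without Lgr5+Setdb1KO 2. The genotypes did not overlap for any of the 4, and neither did they for 34.3% of all tested genes. After thinning, a Reg4 UMI was found in 31.8%, 22.8%, 36.6% and 44.9% of members, an Afp UMI in 9.09%, 8.77%, 12.7% and 25.1% and a Trpa1 UMI in 22.7%, 12.3%, 23.9% and 30.5%. Without thinning the shares were 36.4%, 28.1%, 36.6% and 50.3% for Reg4, 13.6%, 14.04%, 22.5% and 33.2% for Afp, and 22.7%, 28.1%, 52.1% and 51.9% for Trpa1. In enterocyte-marker barcodes the thinned shares were at most 1.78%, 0.254% and 0%. Of 29 markers compared in this way 9 (31.0%) did not overlap between genotypes. None could pass in 2 against 2 libraries, where the smallest exact permutation p is 0.33 and all adjusted values were 1.

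**Figure D4:**
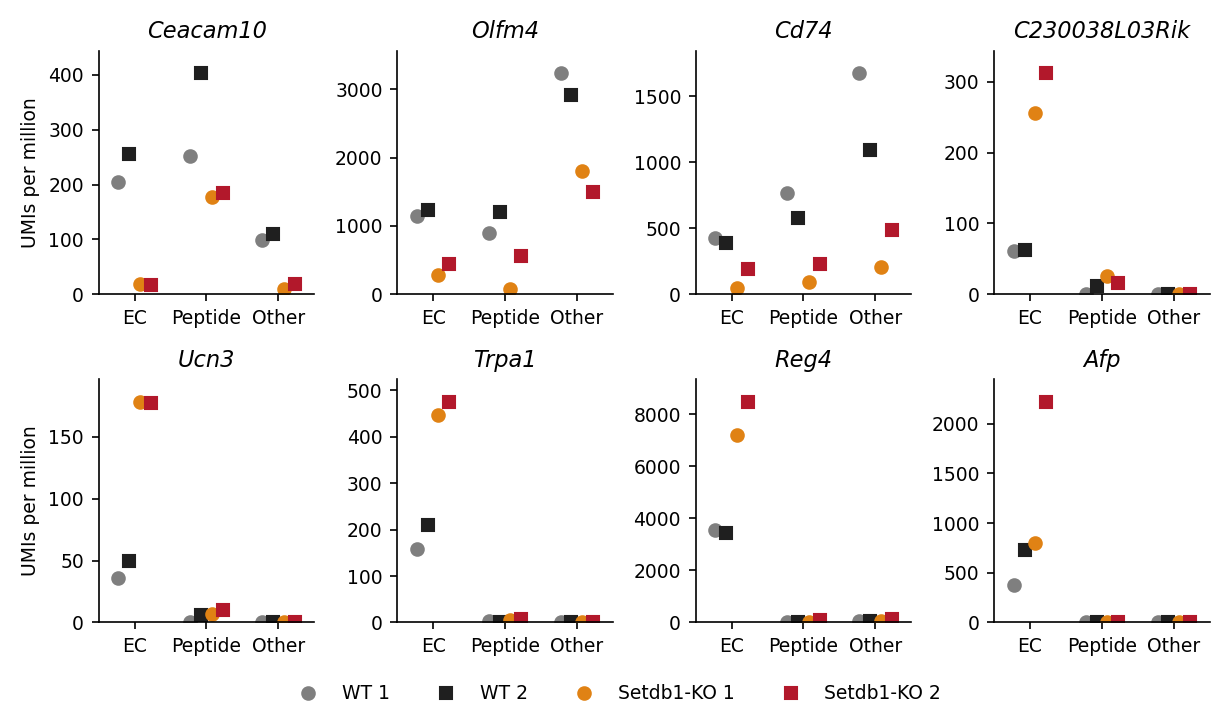
CPM of 8 genes in enterochromaffin (EC), peptide-hormone and other kept barcodes, 1 point per Lgr5+ library. Ceacam10 falls to 18.1 and 16.1 in enterochromaffin barcodes of the Setdb1-KO libraries and stands at 177 and 184 in their peptide-hormone barcodes (252 and 403 in Lgr5+WT), while C230038L03Rik, Ucn3, Trpa1, Reg4 and Afp stand high in enterochromaffin barcodes alone.

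The genes of MHC class II antigen presentation did not pass the adjusted test. Cd74, the invariant chain, stood at 423, 390, 43.9 and 190 CPM (log2 fold change −1.71, edgeR adjusted p = 0.23), and H2-Aa, H2-Ab1 and H2-Eb1 differed by −2.08, −1.50 and −2.18 on the log2 scale (adjusted p from edgeR 0.42, 0.27 and 0.27). All 4 had an unadjusted p below 0.05, as did 2.47% of all tested genes in that direction, and none passed after adjustment. The members held few UMIs of H2-Aa (4, 14, 3 and 10), H2-Ab1 (11, 21, 13 and 23) and H2-Eb1 (8, 18, 2 and 16). Cd74 had an adjusted p below 0.05 in 7 of 16 alternatives and H2-Eb1 in 3 of 15. The Cd74 log2 fold change was −3.24 without Lgr5+Setdb1KO 2 (edgeR adjusted p = 8.8e-10) and −1.003 without Lgr5+Setdb1KO 1. In peptide-hormone barcodes Cd74 stood at 763, 581, 88.7 and 226 CPM, also lower in both Lgr5+Setdb1KO libraries. H2-Aa, H2-Ab1 and H2-Eb1 were lower there too, on 5 to 50 UMIs per library. The share of all genes that did so in that class was not counted. The empty droplets held Cd74 at 961, 648, 88.3 and 320, so free RNA moved with it and its part was not tested. Of the 26 MHC and interferon genes 10 were tested, with 4 lower at an unadjusted p below 0.05, 0 higher and a median of −0.50.

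Markers of other cells were looked up in the same sums. Paneth markers made up 0.248%, 0.362%, 0.260% and 1.17% of the members' UMIs and goblet markers 1.89%, 0.310%, 0.119% and 1.24%. In the peptide-hormone barcodes the Paneth share was 0.174%, 0.279%, 0.224% and 3.42% and the goblet share 0.601%, 0.480%, 0.281% and 1.41%, so Lgr5+Setdb1KO 2 stood apart there. Without that library the Ceacam10 difference between the classes was −2.76 on the log2 scale (edgeR adjusted p = 0.027). Of the enterocyte markers 3 of 7 tested had an unadjusted p below 0.05, all higher in Lgr5+Setdb1KO (2.96% over all tested genes), Fabp1 among them (60.4, 98.5, 160 and 798; edgeR adjusted p = 0.18, below 0.05 in 7 of 16 alternatives, with log2 fold changes from 0.81 without Lgr5+Setdb1KO 2 to 3.27 without Lgr5+Setdb1KO 1). The same held for 3 of 6 tested Paneth markers, and none of either list passed after adjustment. The part of such RNA in the other differences was not tested. Of the 10 immune markers 7 had no UMI in any member, and of the 7 tuft markers 1 had none. Gip, a hormone of other enteroendocrine cells, had 0, 0, 15 and 20 UMIs in the members, 38.8 and 35.9 CPM in the Lgr5+Setdb1KO libraries, where the empty droplets held 540 and 256.

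The members were not uniform, and those with a Neurog3 UMI had other levels of many genes. Neurog3 drives enteroendocrine fate and is switched off as the cells mature. It was found in 9, 18, 28 and 29 members, which is 40.9%, 31.6%, 39.4% and 15.5%. After thinning the shares were 27.3%, 15.8%, 25.4% and 6.42%, against 0.254% or less in enterocyte-marker barcodes. Lgr5+Setdb1KO 2 stood lowest and Lgr5+Setdb1KO 1 within the range of the Lgr5+WT libraries, and the summed level (447, 260, 424 and 98.7 CPM) did not pass the test (log2 fold change −0.43 ± 0.45, edgeR adjusted p = 1). Without Lgr5+Setdb1KO 1 it did (−1.66, edgeR adjusted p = 0.0017). Members with a Neurog3 UMI had median depths of 3541, 2818, 5044 and 2279 UMIs, close to the 2955, 3090, 4884 and 2206 of those without.

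Chgb averaged 49555 CPM in members with and 53293 in members without a Neurog3 UMI over the 4 libraries. The rule genes, whose levels in both sets are bound by the selection, averaged 1949 and 1993 for Tph1, 7468 and 6092 for Tac1, and 5072 and 17357 for Chga. Among genes that the rule did not use, Reg4 was 0, 303, 988 and 930 with and 6015, 4551, 11860 and 9777 without. Each library thus showed the lower Reg4 level in its Neurog3-positive members. Afp averaged 36.1 and 1389, Trpa1 73.0 and 441, Ucn3 12.2 and 158, C230038L03Rik 41.1 and 237, and Sct 1479 and 4095, and all 5 were lower with Neurog3 in 4 of 4 libraries. Counted by barcode, a Reg4 UMI was found in 0%, 16.7%, 3.57% and 20.7% of members with and 61.5%, 33.3%, 58.1% and 55.7% of members without a Neurog3 UMI. For Afp the shares were 0%, 5.56%, 3.57% and 10.3% with and 23.1%, 17.9%, 34.9% and 37.3% without. Both genes were thus found less often with Neurog3 in each library.

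Some transcription factors and chromatin proteins of endocrine cells were higher with Neurog3. Insm1 averaged 665 CPM with and 323 without, Sox4 413 and 161, Hmgn3 1110 and 500, and Neurod2 105 and 22.01, each higher in 4 of 4 libraries. Of the 13 transcription factors other than Neurog3 that reached 100 CPM in either set, 7 were higher in 4 of 4 libraries, 0 were lower in 4 of 4 and 6 were mixed. Over all 1804 genes at this level, 266 (14.7%) were higher and 210 (11.6%) lower in 4 of 4. The proliferation marker Mki67 was found in 2 of 84 members with and 11 of 253 without a Neurog3 UMI. The goblet gene Zg16 was also higher with Neurog3, at 27053 and 18520 in Lgr5+WT 1 and Lgr5+Setdb1KO 2 and under 400 in the others. Goblet markers reached 2% of UMIs in 1, 1, 0 and 11 members, and the part of such mixed barcodes in the Zg16 values was not tested. The split was made after these members were chosen and on the same UMIs, so it is a description without a test.

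**Figure D5:**
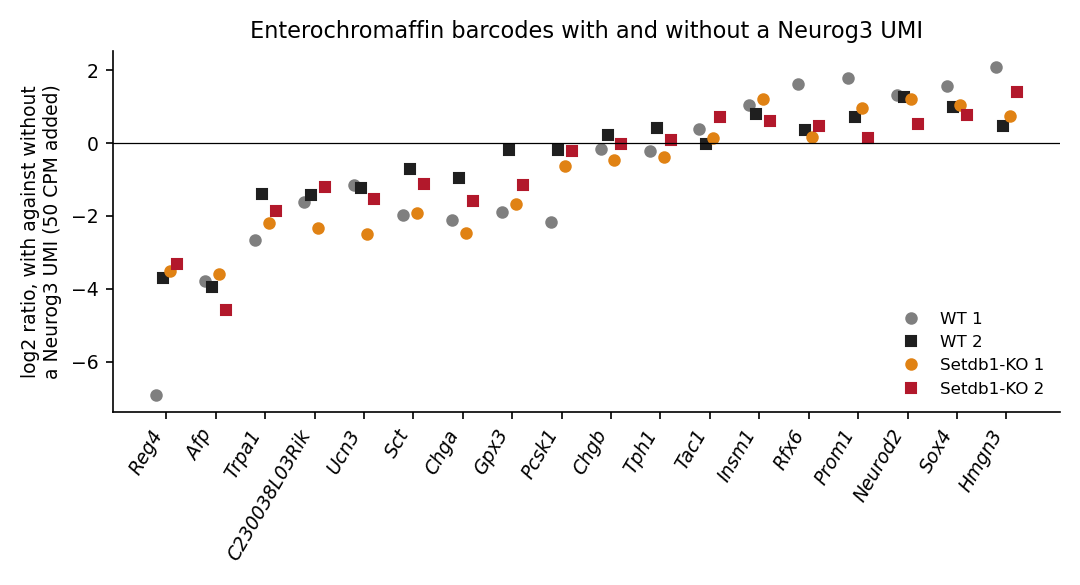
log2 ratio of the level in enterochromaffin barcodes with a Neurog3 UMI against those without (50 CPM added to both), 1 point per Lgr5+ library. Reg4, Afp, Trpa1, C230038L03Rik, Ucn3 and Sct lie below 0 in 4 of 4 libraries, as does the rule gene Chga, Chgb and the rule genes Tph1 and Tac1 scatter around 0, and Insm1, Sox4, Neurod2 and Hmgn3 lie above 0.

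C230038L03Rik, Ucn3, Trpa1, Reg4 and Afp, which were higher in both Lgr5+Setdb1KO libraries, were thus lower in Neurog3-positive members, and whether this holds for other such genes was not tested. When the 84 members with a Neurog3 UMI were left out, C230038L03Rik differed by 2.04 on the log2 scale (adjusted p from edgeR 0.074), Ucn3 by 1.88, Afp by 1.25, Trpa1 by 1.20 and Reg4 by 1.03 (adjusted p 0.18, 0.64, 0.36 and 0.79), and the calls were 0 higher and 2 lower. The 2 genes were Ceacam10 (−4.05) and Olfm4 (−1.96). Without those members the enterochromaffin share was 0.454% ± 0.257 and 1.44% ± 0.0740 (SD, n = 2 libraries each).

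The sort of lineage-traced cells, from mice that also carried the nTnG reporter, held few such cells. The rule found 15 and 5 barcodes with wild-type Setdb1 and 3 and 30 with Setdb1lox/lox, or 0.280%, 0.235%, 0.130% and 0.381% of kept barcodes. Chgb stood at 23223, 20455, 42946 and 27089 CPM and Reg4 at 6358, 7971, 13341 and 4355, and Paneth markers reached 2% of UMIs in 14, 5, 0 and 19 of these barcodes. With 3 and 5 barcodes in 2 of the 4 libraries, no test between genotypes was made there.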

How the data were processed

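Droplet-based 3′ single-cell RNA-seq was read from the UMI counts per gene and barcode that the authors deposited as unfiltered matrices. The submitters' processing notes name Cell Ranger 6.1.1, mm10 and Seurat 5.0.3, and the matrix headers name Cell Ranger 4. The members and gene lists were chosen with earlier results of these data known. The named genes are genes of the lists, tested or not, the 20 genes with the highest ratio over other kept barcodes (10 CPM added, at least 100 CPM in the members) and the called genes. Cd177, C230038L03Rik among the ratios and Zg16 in the Neurog3 split were chosen after their values were seen. UMIs were summed over members per library and tested in edgeR 4.0.16 by quasi-likelihood F tests after filterByExpr and TMM scaling, with Benjamini-Hochberg adjustment. DESeq2 1.42.0 was an alternative. The edgeR p-values rest on the spread between 2 libraries per genotype, which edgeR moderates for each gene toward a trend over the tested genes. The SE given with a log2 fold change is its absolute value divided by the square root of the F statistic. Levels are CPM of a library's summed members, without TMM. Shares were compared by exact two-sided permutation. The study removed doublets with DoubletFinder after the deposited stage. None were removed in the values reported here, and Scrublet (scanpy 1.11.5), marking 0.8% per 1000 barcodes, was an alternative. Other alternatives were size factors, the filter on low counts, the rule's thresholds, mixed profiles, thinning, and leaving out each library. On simulated counts of 4380 genes, the test between genotypes called 79.6% and 91.7% of genes changed by +2 and −2 log2, but 14.3% and 17.4% of those changed by +1 and −1, and 0.0955% of unchanged genes. The changed genes numbered 49, 48, 49 and 46 at +2, −2, +1 and −1. With fewer changed genes the adjustment is stricter, so these rates may be too high for the comparison made here. The simulated counts took the spread between libraries as a trend over expression level, fitted on these same libraries. Genes more variable than that trend, free RNA and mixed barcodes were not simulated. Intervals and floors cover counting error only. The bulk RNA-seq, H3K9me3 (titled ChIP in the labels, CUT&Tag in the study) and scATAC-seq samples were not used here. One gene of the lists is not reported here.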

Additional observations from a re-analysis of the deposited data

Results flagged for a closer look

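The genotype effect on Ceacam10 differed between enterochromaffin and peptide-hormone barcodes, by −2.92 on the log2 scale (edgeR interaction term, adjusted p = 0.0021). This call was lost with DESeq2 and in some of the fits that left out a library. The gene was lower in both Lgr5+Setdb1KO libraries than in both Lgr5+WT libraries in each class.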

How the results depend on the processing

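The 3 genes called between genotypes became 5 with DESeq2 size factors, 32 with no filter on low counts, 17 with the rule at 1%, 22 at 0.25%, 5 with up to 10% mitochondrial UMIs, 36 with doublets removed and 11 with mixed profiles removed. It was 2 with DESeq2 (52 at an unadjusted p below 0.05), at least 2000 UMIs, the rule after thinning and members without a Neurog3 UMI. Leaving out 1 library gave 14 to 38. Same-numbered libraries did not deviate together (r = 0.017 over 4732 genes, 2 pairs), and a fit with the replicate number as a block gave 10 calls. The count therefore depends on these settings. Ceacam10 was called under every alternative run for that comparison. Olfm4 was lost with at least 2000 UMIs, up to 10% mitochondrial UMIs, the rule after thinning and without Lgr5+Setdb1KO 1. The single difference from peptide-hormone barcodes became 16 with no filter, 0 with DESeq2 (30 at an unadjusted p below 0.05), and 0 to 15 with 1 library left out. The Sct share turned to 0.168 points with mixed profiles removed and ran from −13.1 to 2.81 with 1 library left out. The Neurog3 share turned to 0.313 at the 0.25% rule and ran from −15.1 to 3.82 with 1 library left out. The log2 fold change of Chgb turned to −0.0061 with at least 2000 UMIs. With 1 library left out, log2 fold changes ran from −0.083 to 0.17 for Chgb, −0.058 to 0.23 for Gch1, −0.075 to 0.23 for Slc18a1 and −1.66 to 0.30 for Neurog3. The difference between the enterochromaffin and the peptide-hormone effect on Olfm4 ran from −0.54 to 1.64. The Olfm4 log2 fold change in the members stayed negative in all 16 alternatives, from −2.57 to −1.35. Leaving out members with a Neurog3 UMI was chosen after seeing the data. The comparisons planned for the lineage-traced libraries were not run, since 2 of them held under 10 members.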
